A study of Homo sapiens with 6 samples.

Results

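The short arm of human chromosome 5 carries genes for telomere upkeep, mitochondrial enzymes, cytokine receptors and actin regulators. Its protein-coding genes were followed from the tip of the arm to the centromere in cells with and without an shRNA against VprBP. The genes described are the 104 rows of the count table that are protein-coding, lie on chromosome 5 and start before base 48000000, with the IRX genes and the genes whose names start with SLC left out. They are 104 of the 21494 genes in the table and of its 15325 protein-coding genes. The arm was singled out from values of the same comparison, so its fold changes and calls are given as a description and carry no test of the arm.

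RNA-seq was performed on 6 samples, of which 3 carried a control shRNA and are called Control sh, and 3 carried an shRNA to DCAF1, the gene of VprBP, and are called VprBP sh. VprBP is a substrate receptor of a ubiquitin ligase and, in the study's account, a kinase for histone H2A. The labels name the human melanoma line G361 as the cell line, LD611 as the source, and WT or DCAF1 Knockdown as the genotype. Since the names of the line and the source differ, which cells were sequenced is unsure. The methods describe knockdown cell lines made with a lentiviral shRNA vector and drug selection, without saying whether they were pools or clones. The labels do not say whether the samples of a group came from separate cultures, so the spread between them may be technical.

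Gain of this arm recurs in carcinomas, where TERT, the catalytic subunit of telomerase, and SKP2, a ubiquitin ligase subunit that promotes entry into S phase, are among its best known genes. Loss of its end causes cri-du-chat syndrome. Its genes serve many separate functions.

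Total counts ran from 18195926 to 26883925 per sample. DCAF1 had 688, 893 and 884 counts in the Control sh samples against 681, 488 and 628 in the VprBP sh samples, a log2 fold change of -0.58 ± 0.17 (SE) that missed the 2-fold limit (edgeR adjusted p = 0.0125). The mitochondrial share of counts was 1.96% to 1.98% for Control sh, against 4.10% to 4.48% for VprBP sh. Of the melanocyte markers, TYR, DCT and SOX10 had no row in the count table, whose smallest row sum was 10 counts. The 4 of 7 with a row had sums of 184 to 210 counts per Control sh sample and 235 to 367 per VprBP sh sample. Among them, MLANA and TYRP1 had at most 5 counts in any sample. Of the urothelial markers, 7 of 8 had a row, all but UPK3A. Their sums were 120476 to 153024 counts per Control sh sample and 22939 to 37547 per VprBP sh sample, most of them from the keratins KRT5, KRT7 and KRT17. UPK1B was at 0 in all 3 VprBP sh samples, while GATA3 went from 7, 1 and 0 counts to 1580, 1334 and 1873, and PPARG from 300, 247 and 227 to 628, 701 and 978. The part of these differences in the values below was not tested. Replicates 2 and 3 of each group lay closer together than either did to replicate 1, with median differences over the arm's genes of 0.06 and 0.05 on the log2 scale for Control sh and VprBP sh, against 0.16 to 0.24 for the pairs with replicate 1.

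The promoters of 4 genes are given as examples of starts on the arm. Each is the 250 bases before the start of the canonical GENCODE 44 transcript in hg38, written in the direction of transcription with CG dinucleotides in capitals, and with TATAAA in capitals in the 2 sequences where it lies close to the start. The genes were chosen for their own results, given below, and do not stand for the arm, most of whose tested genes lay lower in VprBP sh. SRD5A1, which reduces testosterone to dihydrotestosterone, is read in the opposite direction to a close neighbour. IL7R, a cytokine receptor chain, had almost no counts in VprBP sh. PRLR, the prolactin receptor, and SELENOP, a secreted selenium carrier, had almost none in Control sh.
SRD5A1, chr5:6633190-6633439, + strand: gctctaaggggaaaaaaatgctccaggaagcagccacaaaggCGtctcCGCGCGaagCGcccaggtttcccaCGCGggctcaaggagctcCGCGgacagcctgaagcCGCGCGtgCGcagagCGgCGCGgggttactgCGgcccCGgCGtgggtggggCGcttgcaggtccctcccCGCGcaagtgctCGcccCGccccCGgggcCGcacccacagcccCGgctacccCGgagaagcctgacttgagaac
PRLR, chr5:35230488-35230737, - strand: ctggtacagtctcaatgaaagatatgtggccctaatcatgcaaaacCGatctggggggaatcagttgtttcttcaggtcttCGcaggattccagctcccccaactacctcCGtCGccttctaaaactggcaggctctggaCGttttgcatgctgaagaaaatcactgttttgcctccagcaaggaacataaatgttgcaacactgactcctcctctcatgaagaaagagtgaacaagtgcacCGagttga
IL7R, chr5:35856641-35856890, + strand: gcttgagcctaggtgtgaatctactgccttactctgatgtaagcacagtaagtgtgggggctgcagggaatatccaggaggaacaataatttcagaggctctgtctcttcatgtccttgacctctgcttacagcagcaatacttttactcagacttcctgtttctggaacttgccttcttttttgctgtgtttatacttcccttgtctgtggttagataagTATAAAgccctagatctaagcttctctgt
SELENOP, chr5:42811893-42812142, - strand: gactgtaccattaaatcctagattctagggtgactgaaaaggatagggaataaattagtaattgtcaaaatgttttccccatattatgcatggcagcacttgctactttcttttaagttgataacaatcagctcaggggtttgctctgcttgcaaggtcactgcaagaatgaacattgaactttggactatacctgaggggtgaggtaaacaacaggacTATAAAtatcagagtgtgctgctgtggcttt

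The SRD5A1 sequence holds 28 CG dinucleotides and PRLR 6, while IL7R and SELENOP hold 0. TATAAA begins 29 bases before the start in IL7R and 31 bases before it in SELENOP. On the gene's own strand within 50 bases of the start, TATAAA was found in 5 of the 104 genes (DNAH5, C1QTNF3, IL7R, SELENOP and HMGCS1, or 4.81%) and in 2.70% of the 15303 protein-coding genes with a start. On either strand of the 250 bases it was found in 7.69% of the arm's genes and in 6.23% of the protein-coding genes. The arm's promoters had a median of 23 CG dinucleotides, against 21 over the protein-coding genes.

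Counts from the arm were lower in VprBP sh as a sum, before any model. In the Control sh samples the 104 genes took 1.17%, 1.25% and 1.26% of all protein-coding counts, and in the VprBP sh samples 0.760%, 0.705% and 0.699%. The groups did not overlap, and the mean share was 1.23% ± 0.048 (SD, n = 3) in Control sh and 0.721% ± 0.033 in VprBP sh, a ratio of 0.586 ± 0.036. The long arm (5q) went the other way, from 2.81%, 2.88% and 2.88% in Control sh to 3.79%, 3.51% and 3.50% in VprBP sh. The ratio of short-arm to long-arm counts was 0.418, 0.435 and 0.439 in Control sh and 0.201, 0.201 and 0.200 in VprBP sh. Without the 5 genes of the arm with the most counts (CCT5, CLPTM1L, SDHA, MARCHF6 and TRIO) the ratio of the shares was 0.582. In these bulk samples, fewer cells with active short-arm genes and less RNA per cell cannot be told apart.

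**Figure D1:**
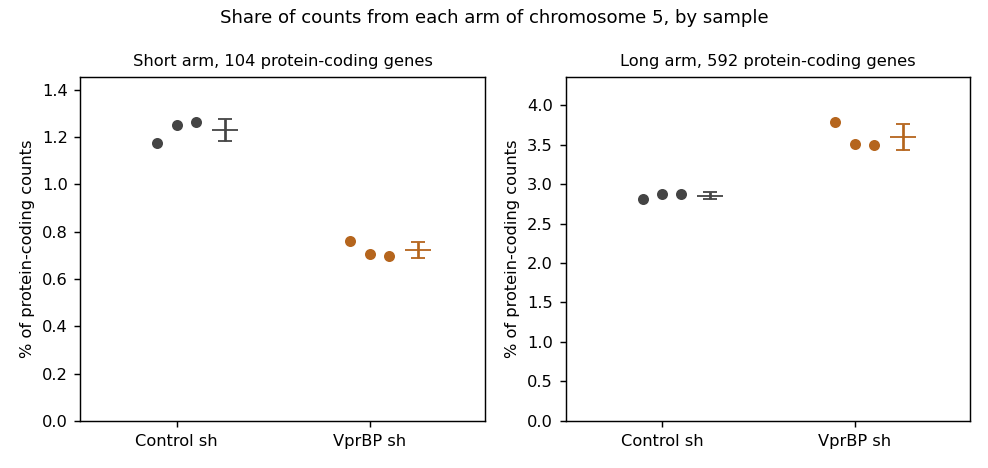
Percent of protein-coding counts from the 104 genes of the short arm (left) and from the long arm (right) in each sample, with the group mean and SD. The 3 VprBP sh samples lie at 0.699% to 0.760% for the short arm, below all 3 Control sh samples, and at 3.50% to 3.79% for the long arm, above them.

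For single genes, a log2 fold change (VprBP sh over Control sh, ± SE, 3 samples a group) was fitted with edgeR on counts scaled by upper quartile factors, and calls needed an adjusted p under 0.05 (Benjamini-Hochberg, over all 16756 genes tested) together with more than a 2-fold change. Of the 104 genes, 96 had enough counts to be tested. Their median log2 fold change was -0.75, or 0.597-fold, with quartiles at -1.60 and -0.06. For comparison, the median was 0.29 over 532 genes of the long arm and 0.06 over all 13885 protein-coding genes tested. Low medians were not confined to the arm, since protein-coding genes of chromosome 8 had a median of -0.74 (451 genes) and those of chromosome 20 a median of -0.60 (366 genes). Below 0 lay 75 of the 96 genes, and 21 lay above. Scaling by library size alone moved the median of all genes tested from 0.08 to 0.29 and that of the arm to -0.53, and the arm's median minus that of all genes was -0.83 under both scalings.

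Called lower in VprBP sh were 35 of the 96 genes (36.5%), where 22.0% of all genes tested were called lower and 46.4% were called in either direction. Called higher were 10 genes (10.4%), where 24.5% of all genes were. The 51 others were not called. The samples of the groups did not overlap for 77 genes, 64 of them lower in VprBP sh, and over all genes tested 79.5% did not overlap, 37.3% being lower in VprBP sh. An adjusted p under 0.05 at a fold change within 2 was reached by 33 of the 96 genes, 30 of which were lower, and by 5022 of the 16756 genes tested in all, 2344 of which were lower. At any fold change, 65 genes were lower and 13 higher by that p alone, where 36.0% of all genes tested were lower and 40.4% higher. Since these calls come from the comparison that singled out the arm, nothing is read from their excess over the rest of the table.

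The arm's fold changes fell into a broad middle and tails on both sides. Between -1.2 and -0.4 on the log2 scale lay 33 genes (34.4%), where 16.03% of the protein-coding genes and 12.6% of the long-arm genes lay. Below -2 lay 19 genes (19.8%), where 13.1% of the protein-coding genes and 13.3% of the long-arm genes lay. Within 0.4 of 0 lay 18 genes (18.8%), against 26.3% and 23.1%. From 0.4 to 1.2 lay 8 genes (8.33%), against 19.4% and 21.6%, and from 1.2 upwards 8 more, against 19.1% and 25.2%. Of the 54 genes that averaged at least 1000 normalized counts over the 6 samples, 48 were below 0, with a median of -0.92 and quartiles at -1.34 and -0.48. Within these, the 13 genes with a mean of at least 5000 had a median of -1.36 and quartiles at -2.71 and -0.97, and the 41 between 1000 and 5000 a median of -0.69 and quartiles at -1.02 and -0.44. The 12 genes with a mean under 100 had a median of -0.02. The long-arm genes with a mean of at least 1000 had a median of 0.29 (183 genes). Over all protein-coding genes tested, the median was also lowest for those with the most counts. It was 0.04 for means under 100, 0.16 from 100 to 1000, -0.004 from 1000 to 5000 and -0.38 from 5000 (777 genes).

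**Figure D2:**
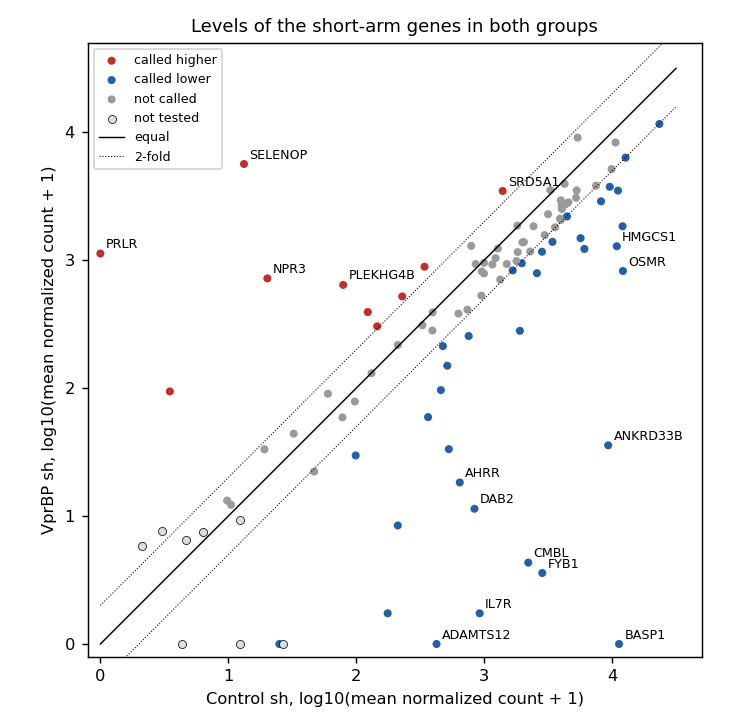
Mean normalized count in Control sh (horizontal) and VprBP sh (vertical) of each of the 104 genes, both as log10(mean + 1), coloured by call. Most genes with high counts lie in a band just under the diagonal, while BASP1, ADAMTS12, PLCXD3 and 3 untested genes lie on the horizontal axis with 0 counts in VprBP sh and PRLR lies on the vertical axis with 0 counts in Control sh.

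The lower values ran along the whole arm. In windows of 5 Mb from the tip, the median log2 fold change was -0.59 at 0 to 5 Mb (19 genes), -0.72 at 5 to 10 Mb (7 genes), -0.94 at 10 to 15 Mb (11 genes) and -1.50 at 15 to 20 Mb (5 genes). No gene described here started between 20 and 30 Mb. Beyond that stretch the medians were -0.58 at 30 to 35 Mb (16 genes), -0.99 at 35 to 40 Mb (17 genes) and -0.47 at 40 to 45 Mb (21 genes). All 7 medians were below 0, and each window held between 1 and 8 genes called lower and 0 to 3 called higher.

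A running median over 9 neighbouring tested genes was below 0 at 81 of 88 positions. Its lowest value, -2.28, was centred on RICTOR, in a stretch near 39 Mb where EGFLAM, LIFR, OSMR, RICTOR, FYB1 and DAB2 followed each other and were all called lower. Its highest value, 0.28, held from CCDC152 to ZNF131 near the centromere. In and beside that stretch FBXO4, SELENOP and CCL28 were called higher, while PLCXD3, CCDC152 and HMGCS1 were called lower. The last 2 genes inside the limit of 48000000 were NNT, starting at 43602692, and MRPS30, starting at 44808947, with log2 fold changes of -0.89 and -0.69. The first 2 protein-coding genes past it were EMB, at 50396192, with 769, 953 and 1071 counts in Control sh, and PARP8, at 50665899, with 344, 427 and 486 counts, and both had 0 counts in every VprBP sh sample. The first 10 Mb of the long arm in the table (50 to 60 Mb) had a median of -1.0 over 27 genes, and the next windows of 10 Mb had medians of -0.13 at 60 to 70 Mb, -0.41 at 70 to 80 Mb (48 genes), 0.44 at 80 to 90 Mb and 0.96 at 90 to 100 Mb.

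**Figure D3:**
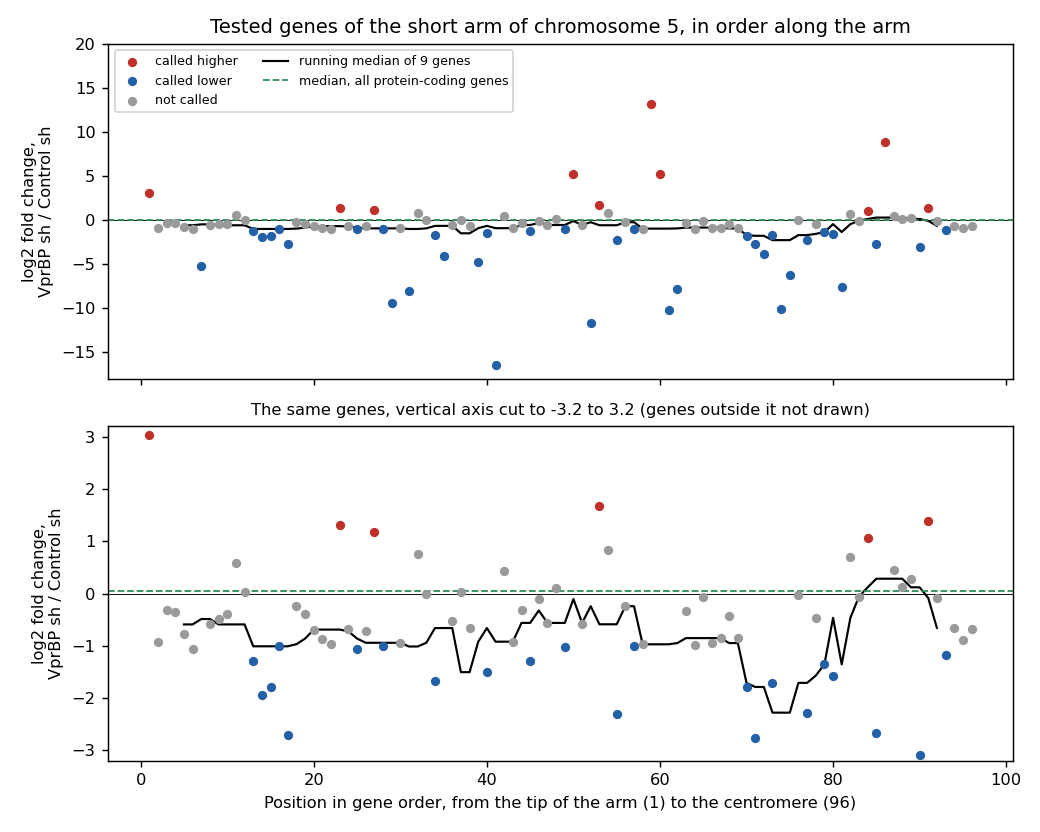
Fitted log2 fold change (VprBP sh over Control sh) of the 96 tested genes in their order from the tip of the arm (1) to the centromere (96), at full scale (top) and cut to ±3.2 (bottom), with the running median of 9 genes as a black line and the median of all protein-coding genes dashed. The running median stays below 0 except near the centromeric end, and for genes with 0 counts in a group, such as BASP1, the fitted height depends on the prior count of the fit and is not a bound.

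Among genes of telomeres, DNA repair and the cell cycle, all 8 tested lay below 0, with a median of -0.97, and 3 were called lower. TERT (chromosome 5, 1253147 to 1295068) had 74.6, 109 and 111 normalized counts in the Control sh samples and 29.8, 32.9 and 23.5 in the VprBP sh samples. All 3 VprBP sh samples were below all Control sh samples, by -1.78 ± 0.26 on the log2 scale. TRIP13, an ATPase that remodels the checkpoint protein MAD2, had 4608, 6073 and 6320.3 normalized counts in the Control sh samples against 1688, 1372 and 1392 in the VprBP sh samples, a log2 fold change of -1.93 ± 0.14. BRD9, a bromodomain subunit of a SWI/SNF chromatin remodeller, starts 83 bases from TRIP13 on the opposite strand and had a log2 fold change of -1.28 ± 0.07, from 2816, 2815 and 2857 to 1206, 1159 and 1123 normalized counts. Both genes of the pair thus lay lower in every VprBP sh sample than in any Control sh sample.

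SKP2 had 3075, 3774 and 3886 normalized counts in the Control sh samples against 1989.6, 1744 and 1682 in the VprBP sh samples. Its groups did not overlap, and its log2 fold change of -0.99 ± 0.11 lay just inside the 2-fold limit. NIPBL, which loads cohesin onto chromosomes, lay at -0.95 ± 0.11, from 4068, 3984 and 3891 to 2411, 1869 and 1914 normalized counts. ICE1, a scaffold of snRNA transcription, lay at -0.69, CEP72, a centrosome protein, at -0.49, and RAD1, a clamp subunit of the DNA damage checkpoint, at -0.24. The last was the smallest difference of the group.

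Of the genes of RNA and protein synthesis, 16 of 18 lay below 0, with a median of -0.71 and values from -1.36 to 0.12. Of these 18 genes, 4 were called lower, 0 higher and 14 were not called. RPL37, a protein of the large ribosomal subunit, had 8512, 9301 and 10935 normalized counts in the Control sh samples against 4509.7, 3181 and 3545 in the VprBP sh samples. That was the lowest log2 fold change of these genes, -1.36 ± 0.14, and its groups did not overlap. CCT5, a subunit of the cytosolic chaperonin and the gene of the arm with the most counts, had 20307, 24638 and 25306 normalized counts in the Control sh samples against 13218, 10867 and 10716 in the VprBP sh samples (-1.01 ± 0.12). SUB1, a transcriptional coactivator, lay at -1.02 ± 0.11 and BRIX1, a ribosome assembly factor, at -1.01 ± 0.14. These 3 calls sat close to the 2-fold limit. Over the list, 1 gene was called with library size scaling, in the test against a 2-fold change, or without Control sh replicate 2 or 3 or VprBP sh replicate 2 or 3, and 7 with TMM factors, with DESeq2 or without VprBP sh replicate 1. CCT5 was not called when counts were scaled by library size alone (-0.80) or when Control sh replicate 2 or 3 or VprBP sh replicate 2 or 3 was left out (-0.98 to -0.96).

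Other genes came close to the limit without passing it. NSUN2, an RNA cytosine methyltransferase, lay at -0.97 ± 0.09, from 6693, 7708 and 8050.1 to 4089.7, 3663 and 3717 normalized counts. DROSHA, the nuclease that opens microRNA maturation, lay at -0.92 ± 0.13, from 2901, 2984 and 3025 to 1928, 1337 and 1443. Neither gene had overlapping groups, and SKP2, NIPBL, NSUN2 and DROSHA were all called with TMM factors (-1.08, -1.05, -1.07 and -1.02), with DESeq2 and without VprBP sh replicate 1, which took the telomere and cell cycle list from 3 to 5 calls. SKP2 and NSUN2 were also called without Control sh replicate 1. ZFR, a zinc finger protein of RNA splicing, had 3404, 3279 and 3179 normalized counts in the Control sh samples against 4026, 3232 and 3321 in the VprBP sh samples. Its groups overlapped (0.10 ± 0.10), as did those of ZNF131, a zinc finger transcription factor with the highest value of these genes (0.12 ± 0.11), and both values lay below 0 with DESeq2.

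Metabolic genes differed more among themselves, with 9 of 14 below 0, a median of -0.38, and 4 called in each direction. SELENOP had 10.3, 16.1 and 10.3 normalized counts in the Control sh samples against 6528, 5333 and 5069 in the VprBP sh samples. All VprBP sh samples were thus far above all Control sh samples (8.84 ± 0.19), and SELENOP overlaps CCDC152 on the opposite strand, which was called lower at -2.66 ± 0.26. AMACR, a racemase of branched-chain fatty acid oxidation, rose from 94.1, 125 and 147 to 410.1, 396 and 370.3 normalized counts (1.67 ± 0.17), and a readthrough gene with C1QTNF3 shares its exons, which makes the assignment of its reads uncertain. SRD5A1 rose from 1365, 1439.9 and 1372 to 3590.1, 3436 and 3398 normalized counts (1.32 ± 0.07). ATPSCKMT, a methyltransferase that modifies mitochondrial ATP synthase, rose from 193, 217 and 273 to 544, 489.6 and 525 (1.19 ± 0.14).

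In the other direction, CMBL, a hydrolase of the liver and gut, had 1882, 2302 and 2442 normalized counts in the Control sh samples against 3.32, 5.14 and 1.52 in the VprBP sh samples. It was close to absent in every VprBP sh sample, with a log2 fold change of -9.40 ± 0.24. Leaving out single samples moved this value to between -9.86 and -8.98, more than the SE covers. HMGCS1, which makes the precursor of mevalonate in cholesterol synthesis, fell from 8657, 11797 and 12171 to 1679, 1069 and 1103 normalized counts (-3.08 ± 0.20). LPCAT1, which remodels phosphatidylcholine, fell from 12001, 12208 and 11992 to 1855, 1863 and 1803 (-2.71 ± 0.08), the samples of each group lying close together. MTRR, which reactivates methionine synthase, fell by less (-1.06 ± 0.10).

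Other metabolic genes were not called. SDHA, the flavoprotein of succinate dehydrogenase, had 10509, 10736 and 10656 normalized counts in the Control sh samples against 7534, 8653 and 8755 in the VprBP sh samples, a log2 fold change of -0.35 ± 0.08, and a second gene model over the same exons may take some of its reads. NNT, the mitochondrial transhydrogenase that makes NADPH, lay at -0.89 ± 0.11, from 3448, 4138 and 4149 to 2366, 1932 and 2035 normalized counts. PRKAA1, a catalytic subunit of the energy sensor AMPK, lay at -0.47 ± 0.08. The groups of these 3 genes did not overlap, and NNT was called with DESeq2 (-1.01).

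Ligands and receptors lay on both sides of 0, with 4 of 8 below 0, 4 called lower and 3 called higher. OSMR and LIFR, receptor chains for oncostatin M and for leukaemia inhibitory factor, lie next to each other. OSMR (chromosome 5, 38845858 to 38945596) had 13038, 11738 and 11659.8 normalized counts in the Control sh samples against 615, 964 and 889 in the VprBP sh samples (-3.88 ± 0.16). LIFR had 1939, 1894 and 1866 and 255, 289 and 294 (-2.76 ± 0.10). In both, each VprBP sh sample was below every Control sh sample.

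IL7R, the alpha chain of the interleukin 7 receptor (chromosome 5, 35852695 to 35879603), had 836, 963 and 962 normalized counts in the Control sh samples against 2.21, 0 and 0 in the VprBP sh samples. The VprBP sh samples held 2 reads in all against 2649 in Control sh, a ratio of 1476 with a 95% exact interval from 408 to 12196 that covers counting error only. PTGER4, a prostaglandin E receptor, fell from 429, 457 and 486 to 141, 76.1 and 69.1 normalized counts (-2.28 ± 0.24). PRLR (chromosome 5, 35048756 to 35230487) was the reverse case, with 0 counts in each Control sh sample and 1106, 1134 and 1136 normalized counts in VprBP sh. Against a floor of 3 counts per sample it was at least 356-fold higher.

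NPR3, the clearance receptor for natriuretic peptides, rose from 16.1, 23.7 and 17.8 to 869.9, 631 and 658 normalized counts (5.22 ± 0.21). CCL28, a chemokine of mucosal epithelia, rose from 359, 328 and 335 to 947, 860.0 and 857 (1.38 ± 0.10). Neither gene's groups overlapped. Of this group, C1QTNF3, a secreted relative of adiponectin, was not called at 0.84 ± 0.38. The growth hormone receptor GHR and the growth factor FGF10, also on the arm, had no row in the count table.

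Among adhesion and matrix genes, 3 of the 4 tested were called lower, with a median of -1.54. ADAMTS12, a secreted metalloprotease of cartilage matrix, had 202, 555 and 512 normalized counts in Control sh and 0 in each VprBP sh sample, at least 146-fold lower. Control sh replicate 1 stood below the other 2, but all 3 were far above the floor. EGFLAM, or pikachurin, a matrix protein of synapses, fell from 517, 486 and 537 to 149, 148 and 149 normalized counts (-1.79 ± 0.11). PDZD2, a protein with many PDZ domains, fell by 1.30 on the log2 scale. CDH18, a cadherin of the nervous system, had at most 17.5 normalized counts in any sample and overlapping groups (0.44 ± 0.50). CTNND2 and CDH6 had no row in the count table.

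Of the cytoskeletal, membrane and trafficking genes, 13 of 14 lay below 0 with a median of -1.14, and 7 were called lower and 0 higher. BASP1, a membrane-bound signalling protein of growing neurites (chromosome 5, 17065598 to 17276843), went from 10320.1, 11869 and 11790.2 normalized counts in Control sh to 0 in each VprBP sh sample, at least 3915-fold lower. No Control sh sample came near 0. FYB1, an adaptor that links T cell receptor signals to actin, had 2990.2, 2857 and 2683 normalized counts in the Control sh samples against 1.11, 5.14 and 1.52 in the VprBP sh samples (-10.08 ± 0.22). Without single samples the value of FYB1 ran from -10.92 to -9.74, wider than its SE. DAB2, a clathrin adaptor, fell from 881, 797 and 836 to 7.74, 11.3 and 12.1 (-6.29 ± 0.17). These 3 genes had at most 12.1 normalized counts in any VprBP sh sample.

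The other 4 fell by less. RETREG1, a receptor for autophagy of the endoplasmic reticulum, fell from 216, 192 and 223 to 8.84, 5.14 and 8.35 normalized counts (-4.79 ± 0.24). RAI14, an actin-bundling protein, fell from 6103, 6024 and 6083 to 1281, 1141 and 1249.9 (-2.31 ± 0.08). TRIO, a guanine nucleotide exchange factor, fell from 12361, 10727 and 10243 to 3036, 3805 and 3652 (-1.67 ± 0.11), and MYO10, a myosin that moves to the tips of filopodia, had a log2 fold change of -1.50 ± 0.09. In these genes too the groups did not overlap. GOLPH3, a Golgi protein of vesicle budding, did overlap between groups, with 3967, 4332 and 4454 normalized counts in the Control sh samples against 3672, 4201 and 3974 in the VprBP sh samples (-0.11 ± 0.09, above 0 with library size scaling). ANKH, a membrane protein that exports ATP and citrate, was the highest of the list at 0.04 ± 0.08, a value that lay below 0 with TMM factors and with DESeq2.

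Among genes of ubiquitin and kinase signalling, 5 of 8 lay below 0 with a median of -0.74, 3 were called lower and 1 higher. OTULINL, an inactive relative of the deubiquitinase OTULIN, fell from 559, 526 and 499 to 44.2, 24.7 and 28.1 normalized counts (-4.04 ± 0.20). OTULIN, its neighbour, lay at -0.53 ± 0.10 and was not called. RICTOR, the defining subunit of mTORC2, fell from 2968, 2329 and 2449 to 871, 757 and 741 (-1.71 ± 0.12), and CARD6, a caspase recruitment domain protein, had a log2 fold change of -1.57 ± 0.11. FBXO4, an F-box protein, was called higher at 1.07 ± 0.14, but missed the 2-fold limit with TMM factors (0.97), with DESeq2 (0.95) and without VprBP sh replicate 3 (0.97). MARCHF6, a ubiquitin ligase of the endoplasmic reticulum and among the 5 genes with the most counts, lay at -0.94 ± 0.08 and was not called.

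The 22 tested genes in no list had a median of -0.59, with 7 called lower and 2 higher. ANKRD33B, an ankyrin repeat protein, had 10551, 8850.3 and 8538 normalized counts in the Control sh samples against 14.4, 44.2 and 45.5 in the VprBP sh samples (-8.02 ± 0.27). UGT3A2, a glycosyltransferase, had 164, 174 and 187 and 2.21, 0 and 0 normalized counts, from 504 reads against 2 (ratio 281, 95% exact interval 77.4 to 2326). CLPTM1L, a membrane protein encoded beside TERT, fell from 12150.3, 13046 and 13025 to 6448, 6298 and 6239.5 (-1.01 ± 0.07) and was not called with library size scaling (-0.80) or without Control sh replicate 2 or 3. Each of the 3 genes was lower in all VprBP sh samples. PLEKHG4B, a guanine nucleotide exchange factor at the tip of the arm, rose from 81.5, 71.0 and 81.7 to 689, 618 and 612 (3.03 ± 0.13), and SPEF2, a protein of sperm flagella and cilia, from 3.44, 2.15 and 1.88 to 108, 80.2 and 91.1 (5.18 ± 0.36). AHRR, the repressor of the aryl hydrocarbon receptor, was called lower at -5.17 ± 0.31. It overlaps a readthrough gene from PDCD6, with which its reads may have been split.

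**Figure D4:**
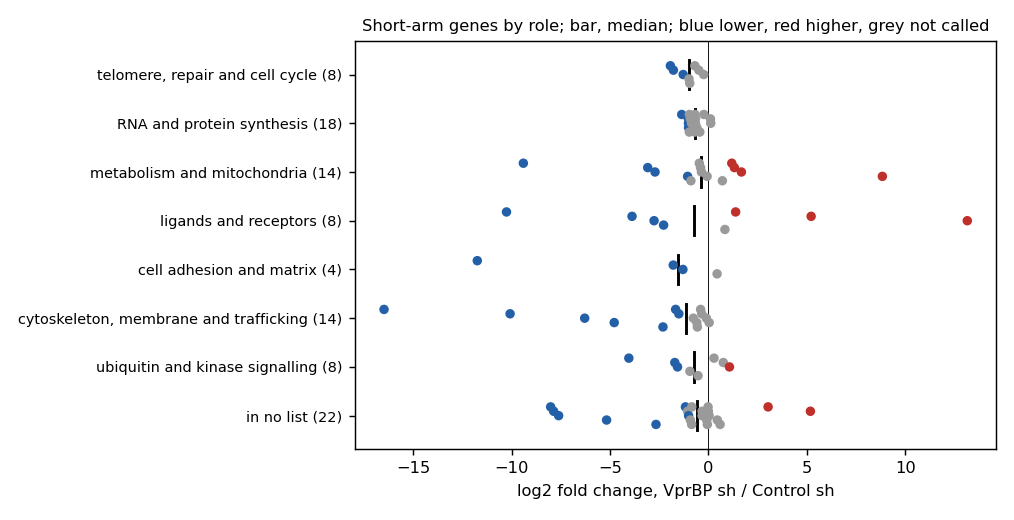
Fitted log2 fold change (VprBP sh over Control sh) of each tested gene of the arm, grouped by role with the number of genes in parentheses, the median of each group as a black bar, and called genes in blue (lower) or red (higher). All medians lie left of 0, from -0.38 for metabolism to -1.54 for adhesion and matrix, and ligands and receptors reach furthest to the right.

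Genes read from close, opposite starts did not always move together. The arm has 9 pairs whose canonical starts lie within 1000 bases on opposite strands, counting a second gene model of SDHA. In 7 pairs both genes lay below 0. The other 2 pairs held NSUN2 with SRD5A1, whose starts lie 396 bases apart, and ATPSCKMT with CCT5, 392 bases apart. SRD5A1 was called higher (1.32) beside NSUN2 at -0.97, and ATPSCKMT was called higher (1.19) beside CCT5 at -1.01. In both pairs each gene's groups did not overlap. The SRD5A1 sequence printed above holds 250 bases of the stretch between its start and that of NSUN2.

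**Figure D5:**
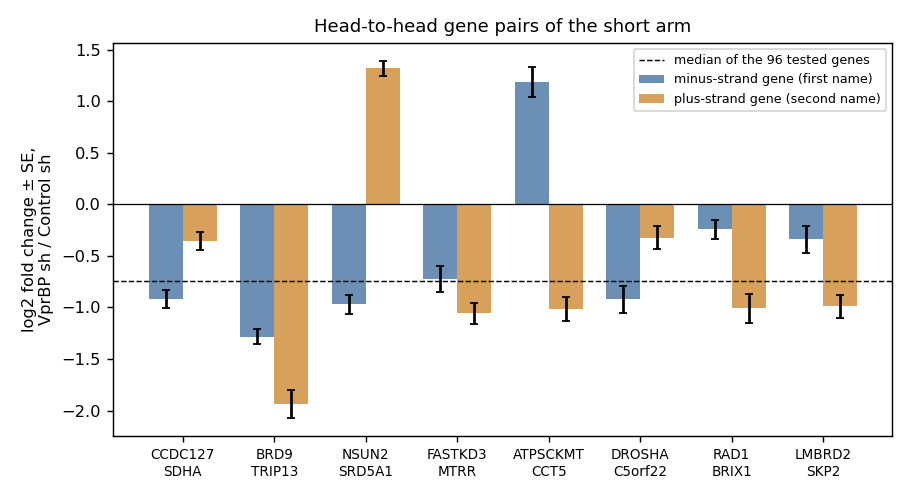
Fitted log2 fold change ± SE (VprBP sh over Control sh) of both genes in 8 pairs of the arm with starts within 1000 bases on opposite strands, the second gene model of SDHA left out, with the median of the 96 tested genes dashed. NSUN2 with SRD5A1 and ATPSCKMT with CCT5 are the 2 pairs on both sides of 0, and the others lie below it.

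The 8 genes that were not tested (LRRC14B, NKD2, SEMA5A, ROPN1L, TAF11L11, C1QTNF3-AMACR, TTC23L and RANBP3L) had group means of at most 25.9 normalized counts. NKD2, which binds Dishevelled, had 47.0, 20.4 and 10.3 normalized counts in the Control sh samples against 0 in VprBP sh, and SEMA5A, a guidance ligand, 6.88, 11.8 and 15.02 against 0. Of the 4 genes of the arm left out by name, 1 was called lower, 1 higher and 2 were not called. Overlap with other genes was common, as 77 of the 104 genes overlap another gene in GENCODE 44 and 25 of them a coding gene, so reads at shared positions may have been split by the authors' counting.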

How the data were processed

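RNA-seq was analysed for 3 Control sh and 3 VprBP sh samples, grouped by the sample titles. The authors aligned reads to hg38 with STAR and counted them by gene in Partek Flow. The deposited values are estimated counts, not normalized and not pooled, of which 59.4% are whole. The design had been written for counts or estimated counts, and the values were rounded to whole counts. The labels and the methods name different library kits, so whether strand was used in counting is unsure.

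All 21494 genes entered edgeR 4.0.16 (R 4.3.3) with upper quartile factors (quantile 0.75), its low-count filter (minimum 10) and its quasi-likelihood test on group, used in place of Partek's own algorithm. Calls needed a Benjamini-Hochberg adjusted p under 0.05 and a fold change over 2. Normalized counts are counts divided by the upper quartile size factors, and 3 counts, taken as the floor, are 2.28 to 3.44 of them. SEs are the log2 fold change over the square root of the F statistic, and can be too small for genes with few counts in 1 group, such as CMBL and FYB1. Intervals and floors cover counting error only. Gene starts, overlaps and promoters came from GENCODE 44 and hg38, with tables handled in Python 3.11.15 (pandas 2.3.3, numpy 2.4.6). The fit was checked on simulated data.

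Named were the 8 largest rises and falls among called genes with no overlap between groups and at least 100 normalized counts on average in 1 group, genes with at most 3 counts per sample in 1 group and the same average of at least 100 in the other, the extremes of each role list, the 5 genes with the most counts, those at the 48000000 limit, and a fixed list of known genes of the arm. Genes outside this rule, such as CARD6, MTRR or SPEF2, were named after their values were seen. A list of complement genes had 0 members in the table. The arm, its members and the lists were chosen with earlier results of these data known. Alternatives were TMM factors, library size alone, DESeq2 1.42.0, other count filters, a replicate block, glmTreat at 2-fold, 10-Mb windows, other denominators and leaving out each sample.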

Additional observations from a re-analysis of the deposited data

How the results depend on the processing

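The arm's median log2 fold change of -0.75 was -0.84 with TMM factors, -0.53 with library size alone, -0.87 with DESeq2 and -0.68 when at least 10 counts were asked of every sample, and ran from -0.82 to -0.71 when samples were left out in turn. The arm's median minus that of all genes was -0.83 under each of these 3 scalings, while the filter on every sample removes genes at 0 in a group (81 tested, 25 called lower and 7 higher, with 3 calls in place of 7 in the cytoskeletal list). Genes called lower numbered 42 with TMM factors, 29 with library size alone, 44 with DESeq2, 39 with no filter, 29 against a 2-fold change and 31 to 42 without single samples, and those called higher 8 to 11 over these. The share ratio stayed between 0.571 and 0.595. All window medians stayed below 0 with TMM factors, with the filter on every sample, without single samples and in 10-Mb windows. For the other alternatives, library size alone and DESeq2 among them, the window medians were not computed. Values that turned sign were all small, namely ANKH with TMM factors (-0.060), DESeq2 (-0.084) and replicates 2 and 3 summed (-0.011), ZFR (-0.022) and ZNF131 (-0.0035) with DESeq2, and GOLPH3 with library size alone (0.11). Without single samples ANKH ran from -0.0067 to 0.076 and ZFR from -0.0065 to 0.15. The other changes are counted over the genes followed singly, each gene once per alternative, so they are not numbers of genes. A call was lost 13 times, always by CCT5, CLPTM1L or FBXO4. It was gained 15 times, always by SKP2, NSUN2, NIPBL, DROSHA or NNT. All of these values were close to the 2-fold limit, and the cause was not tested.

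With the replicate number as a block, 35 genes were called lower and 10 higher, with a median of -0.74. Same-numbered samples did not deviate together, with correlations of -0.06, 0.02 and -0.05 across genes, so the numbers were not taken as pairs. Summing replicates 2 and 3 of each group, an alternative chosen after seeing the data, gave 32 called lower and 10 higher, with a median of -0.76. Depth limits the 8 untested genes and the fold of genes at 0, which is a lower bound.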
